A study of Homo sapiens with 6 samples.

Results

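The 10 genes described here encode enzymes that hydroxylate and cross-link collagen. They are the lysyl oxidases LOX, LOXL1, LOXL2, LOXL3 and LOXL4, the prolyl 4-hydroxylase alpha subunits P4HA1 and P4HA2, and lysyl hydroxylases PLOD1, PLOD2 and PLOD3. They were chosen by symbol with earlier results of these data known, so their directions are not independent evidence. Matched to the gene identifiers of the count files, they make up 10 of the 60669 genes in each file and 10 of the 17575 genes that passed the count filter. They were measured by total RNA sequencing of 293T cells, a transformed line derived from human embryonic kidney, in 6 libraries. MLL2 knockout cells made with CRISPR/Cas9, PRMT1 knockdown cells made with a short hairpin RNA, and control cells labelled wild type each gave 2 libraries, which the labels call biological replicates. MLL2 is a histone H3 lysine 4 methyltransferase, and PRMT1 is the main enzyme of asymmetric arginine dimethylation. The study asked which genes change when either is depleted. The alignment names in the file headers contain shNT for the control and knockout libraries and shPR for the knockdown libraries. The labels do not explain these names, and they do not say whether the knockout cells are 1 clone, so traits of a clone and effects of the knockout cannot be told apart.

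Collagen is modified in the endoplasmic reticulum before it folds. Prolyl 4-hydroxylase, a complex of alpha subunits with the disulfide isomerase P4HB, hydroxylates proline and thereby stabilises the triple helix, while the lysyl hydroxylases modify lysine; both enzyme families need iron, oxygen, 2-oxoglutarate and ascorbate. After secretion the copper-dependent lysyl oxidases convert lysine and hydroxylysine side chains of collagen, and lysine of elastin, to the aldehydes that form covalent cross-links. Several of these genes, among them P4HA1, P4HA2, PLOD2 and LOX, are known targets of the hypoxia-inducible factors.

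The promoters of 4 of the genes are shown because LOXL1 and LOXL4 had the largest decreases in the knockout, and LOX and P4HA1 had the largest decreases in the knockdown relative to the knockout. Each is the 250 bases before the RefSeq transcription start on GRCh38.p14, written on the strand of the gene. For LOX, which has several starts in the table, the one farthest upstream was taken. Capitals mark the core letters of the hypoxia response element, ACGTG or GCGTG on either strand.
LOXL1 (chr15:73926212-73926461, plus strand): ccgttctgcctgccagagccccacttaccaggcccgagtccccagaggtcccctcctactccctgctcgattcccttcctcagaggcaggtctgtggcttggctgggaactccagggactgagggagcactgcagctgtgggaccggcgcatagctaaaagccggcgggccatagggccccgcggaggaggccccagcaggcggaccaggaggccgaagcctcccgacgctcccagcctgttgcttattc
LOXL4 (chr10:98268195-98268444, minus strand): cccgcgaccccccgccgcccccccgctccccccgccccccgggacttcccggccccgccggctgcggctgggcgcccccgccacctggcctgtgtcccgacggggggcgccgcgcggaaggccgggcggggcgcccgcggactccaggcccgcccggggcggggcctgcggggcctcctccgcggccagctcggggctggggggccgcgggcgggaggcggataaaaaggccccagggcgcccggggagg
LOX (chr5:122078260-122078509, minus strand): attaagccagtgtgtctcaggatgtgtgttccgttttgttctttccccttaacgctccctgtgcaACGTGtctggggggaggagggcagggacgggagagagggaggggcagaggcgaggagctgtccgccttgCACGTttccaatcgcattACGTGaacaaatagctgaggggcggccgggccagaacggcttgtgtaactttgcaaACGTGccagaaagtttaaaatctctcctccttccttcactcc
P4HA1 (chr10:73096867-73097116, minus strand): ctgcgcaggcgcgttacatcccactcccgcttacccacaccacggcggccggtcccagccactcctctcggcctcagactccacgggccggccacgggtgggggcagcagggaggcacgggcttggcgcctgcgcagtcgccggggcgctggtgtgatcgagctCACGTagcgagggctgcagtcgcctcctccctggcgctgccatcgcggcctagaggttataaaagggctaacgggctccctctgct
RefSeq promoters were at hand for 9 of the 10 genes, all but LOXL2. The LOX promoter shown held 4 matches to the core letters, that of P4HA1 held 1, and those of LOXL1 and LOXL4 held 0. Of 35116 promoters of the same length in the table, 43.2% held at least 1 match. The other 2 LOX starts held 2 matches each. Among the genes not shown, PLOD2 held 3 matches, PLOD1 held 2, P4HA2 and PLOD3 held 0, and the 2 entries of LOXL3 held 0 and 1. The LOXL4 promoter was also the richest in CpG of the 12 member entries, with 37 CpG dinucleotides, against 13 for LOXL1, 13 for the LOX promoter shown, 25 for P4HA1, and a median of 11 over the promoters of the table (quartiles 3 and 23). A match is a description of these letters and does not show that a factor binds there.

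The libraries held 20061471 to 22351532 counts in genes, where a count is a read pair assigned to a gene. Values for 1 gene are given as CPM, the count scaled to library size by TMM, for comparison between libraries. For comparison between genes they are given as TPM, the count divided by exon length and scaled to the same total in each library, without TMM. PRMT1 stood at 406 and 425 CPM in the knockout, 38.2 and 34.9 CPM in the knockdown and 306 and 319 CPM in control libraries (knockdown against control -3.10 ± 0.09 on the log2 scale, edgeR adjusted p = 5.5e-16). PRMT1 was higher in the knockout than in control cells (0.41 ± 0.08, edgeR adjusted p = 0.00089). MLL2 has been used as a name for both KMT2B and KMT2D. Neither was called in the knockout (log2 changes of 0.02 ± 0.25 and 0.19 ± 0.26), which does not test the label, since an edited gene may still be transcribed. Both were higher in the knockdown, KMT2B by 1.49 ± 0.24 and KMT2D by 1.76 ± 0.25 (edgeR adjusted p = 3.1e-05 and 8.4e-06), with the knockdown libraries far apart, at 13.4 and 26.7 CPM for KMT2B and 37.8 and 95.5 CPM for KMT2D, against 6.74 and 7.53 CPM and 22.5 and 17.0 CPM in control libraries. Without PRMT1 knockdown replicate 2 these changes were 0.91 and 0.94 on the log2 scale, still called. The knockdown libraries differed more from each other than the others did: the log2 difference of replicate 2 minus replicate 1 had an SD over 11509 genes of 0.27, against 0.21 in the knockout and 0.20 in control cells. Of 6 markers of 293T cells, PAX8 was at 0 in 5 of the 6 libraries, and the 6 summed to 179 to 180 CPM in the knockout, 79.8 to 92.9 in the knockdown and 438 to 442 in control libraries. NEFL and NEFM, neurofilament genes, made up most of that sum: NEFL held 153 to 156 CPM in the knockout, 53.3 to 56.6 in the knockdown and 347 to 352 in control libraries. Among the other markers of the list, LHX1 was lower in the knockdown and not called in the knockout, PAX2 and GATA3 were called in neither, and PAX8 was not tested. The 8 fibroblast markers summed to 11.5 to 12.9 CPM in the knockout, 12.6 to 13.6 in the knockdown and 17.5 to 18.6 in control libraries, with FAP at 0 in each library and THY1 at no more than 0.185 CPM. COL3A1, which is also among the collagens below, had 6.23 to 7.35 CPM in the knockout, 5.18 to 6.48 in the knockdown and 12.3 to 12.9 in control libraries, and was the 1 fibroblast marker called in either depletion. The log2 changes in the knockdown were 0.81 for PDGFRA, 0.54 for LUM, 0.18 for COL1A1 and -1.84 for PDGFRB, none called. PDGFRB had 3 and 5 counts in the knockdown, against 21 and 6 in control libraries. The leukocyte, endothelial and hepatocyte marker lists each summed to 3.14 CPM or less in each library. The part of any change in the make-up of the cultures in the results below was not tested, and in bulk RNA fewer cells that express a gene and less RNA per cell cannot be told apart.

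In control 293T cells the hydroxylases were more abundant per length than the lysyl oxidases. P4HA1 was the highest of the 10 genes at 71.1 ± 1.17 TPM, followed by PLOD1 at 35.2 ± 0.405 TPM, PLOD2 at 29.5 ± 3.38 TPM, PLOD3 at 15.4 ± 0.0222 TPM and P4HA2 at 11.9 ± 0.935 TPM (SD, n = 2 each). LOXL3, with a scavenger receptor region in front of its catalytic domain as in LOXL2 and LOXL4, was the most abundant lysyl oxidase at 10.4 ± 0.133 TPM. The other lysyl oxidases lay close together. LOXL4 was at 3.98 ± 0.508 TPM, LOXL2 at 3.60 ± 0.296 TPM, LOXL1 at 3.57 ± 0.936 TPM and LOX, the founding member of the family, at 3.43 ± 0.250 TPM, and the libraries of each neighbouring pair among these genes overlapped. The remaining neighbours in the order did not overlap.

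Most lysyl oxidases fell in both depletions. In the MLL2 knockout 4 of the 5 were lower at an adjusted p under 0.05, with LOXL3 not called, and in the PRMT1 knockdown 5 of 5 were lower. None was higher. Of all genes tested, 12.1% were called lower in the knockout and 25.3% in the knockdown (10.3% and 22.2% higher, 22.4% and 47.4% in either direction), so calls in the knockdown are common. Both depletions were set against the same control libraries, so their values are given side by side and are not independent of each other. Each adjusted p comes from the quasi-likelihood test of edgeR, corrected by Benjamini-Hochberg for the 17575 genes, and errors of log2 changes are standard errors from n = 2 libraries per group.

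LOXL1, which is known for its part in elastic fibre assembly, stood at 0.601 and 0.932 CPM in the knockout, 1.16 and 0.702 CPM in the knockdown, and 6.74 and 4.87 CPM in control libraries. Both depletions lay far below the control libraries, and they overlapped each other. The knockout value was 7.55-fold lower than control (-2.92 ± 0.44, adjusted p = 6.9e-05), and the knockdown value 6.23-fold lower (-2.64 ± 0.43, adjusted p = 3.0e-05). These changes rest on few reads: 13 and 19 counts in the knockout and 24 and 16 in the knockdown, against 135 and 99 in control libraries.

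LOXL4 followed the same order of sizes. It stood at 0.693 and 1.13 CPM in the knockout, 1.60 and 1.27 CPM in the knockdown, and 6.84 and 6.003 CPM in control libraries. It was 7.03-fold lower in the knockout (-2.81 ± 0.39, adjusted p = 2.8e-05) and 4.47-fold lower in the knockdown (-2.16 ± 0.37, adjusted p = 5.5e-05). Both knockdown libraries were above both knockout libraries, but the direct difference was not called (0.65 ± 0.42, adjusted p = 0.225).

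LOX showed a graded pattern, with 4.53 and 4.66 CPM in the knockout, 1.06 and 1.71 CPM in the knockdown, and 7.88 and 9.20 CPM in control libraries. The 3 groups did not overlap. LOX was 1.86-fold lower in the knockout (-0.89 ± 0.27, adjusted p = 0.0206) and 6.10-fold lower in the knockdown (-2.61 ± 0.30, adjusted p = 5.0e-07). The knockdown level rests on few reads, 22 and 39 counts, against 98 and 95 in the knockout and 158 and 187 in control libraries. The knockdown change was -2.32 without knockdown replicate 1 and -3.00 without knockdown replicate 2. The knockout call was lost with DESeq2 (-0.87, adjusted p = 0.0603) and when any 1 of the control or knockout libraries was left out (log2 changes of -0.998 to -0.777), while the knockdown call was kept in each alternative.

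LOXL2 was lower to a similar extent in both depletions, at 4.16 and 4.32 CPM in the knockout, 3.92 and 4.13 CPM in the knockdown, and 9.98 and 9.35 CPM in control libraries. The log2 changes were -1.19 ± 0.24 in the knockout (adjusted p = 0.00103) and -1.26 ± 0.24 in the knockdown (adjusted p = 1.6e-04). LOXL2 lies on chromosome 8 at 23296897 to 23425328. Of the 13 tested genes whose lowest coordinate lies within 500 kb of it, 3 were lower and 3 higher in the knockout.

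LOXL3 was called in the knockdown and not in the knockout. Its level was 20.5 and 19.1 CPM in the knockout, 10.2 and 11.9 CPM in the knockdown, and 20.8 and 21.5 CPM in control libraries. The knockout change was small and not called (-0.09 ± 0.15, adjusted p = 0.704), while the knockdown value was 1.90-fold lower than control (-0.93 ± 0.15, adjusted p = 3.9e-05).

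**Figure D1:**
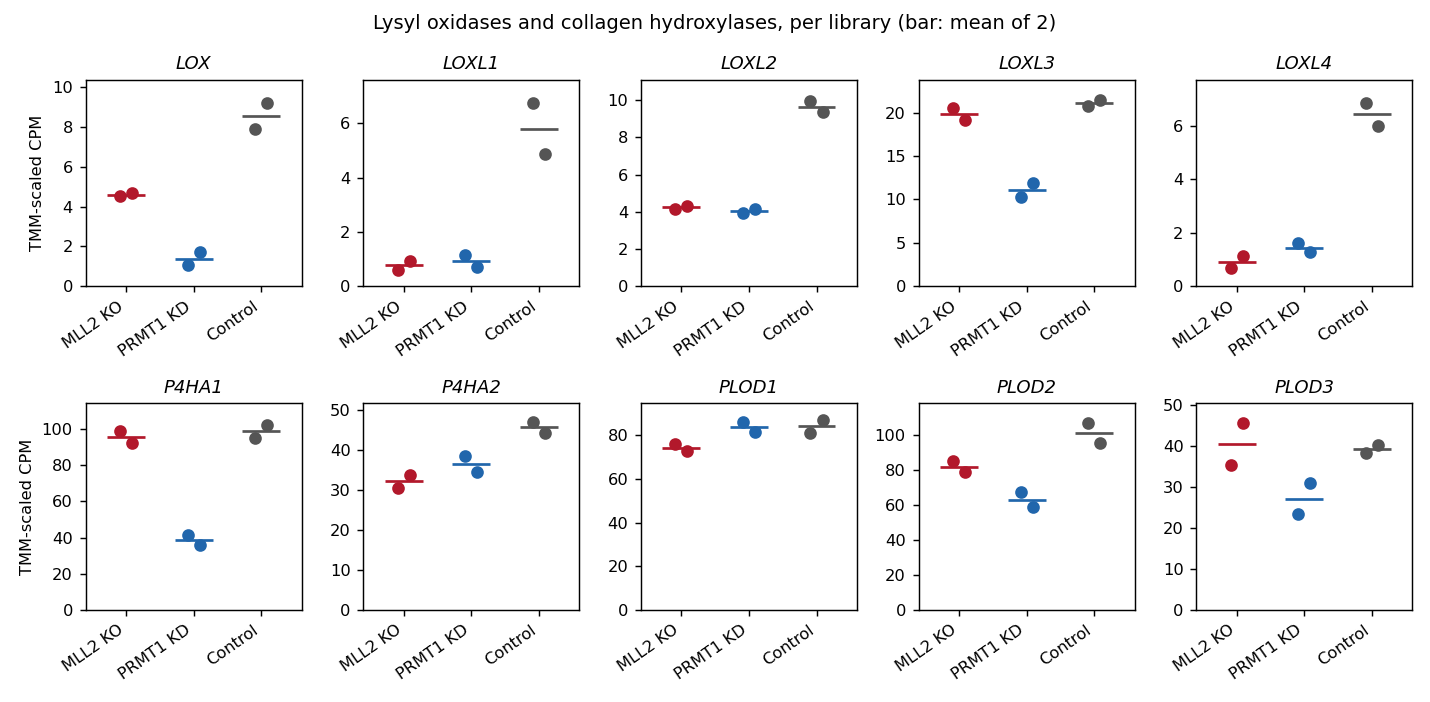
Level of each of the 10 genes in TMM-scaled CPM (vertical axes, each from 0) in each library of MLL2 knockout, PRMT1 knockdown and control cells; points are libraries and bars the mean of 2. LOXL1 and LOXL4 are low in both depletions, LOXL3 and P4HA1 are low in the knockdown libraries, and PLOD1 varies little.

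The make-up of the lysyl oxidase pool differed between the groups as well as its size. Summed over the 5 genes, the knockout libraries held 30.5 and 30.1 CPM, the knockdown libraries 18.0 and 19.8 CPM, and the control libraries 52.2 and 50.9 CPM. LOXL3 made up 70.8% and 66.5% of the summed lysyl oxidase TPM in the knockout, 58.5% and 63.1% in the knockdown, and 40.2% and 43.3% in control libraries. LOXL1 had smaller shares in the depletions: it made up 2.58% and 4.03% in the knockout, 8.23% and 4.61% in the knockdown, and 16.2% and 12.2% in control libraries. LOX had 12.8% and 13.2% in the knockout, within the range of 12.4% and 15.1% in control libraries, and 4.95% and 7.37% in the knockdown. These shares are descriptions of the libraries and were not tested.

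**Figure D2:**
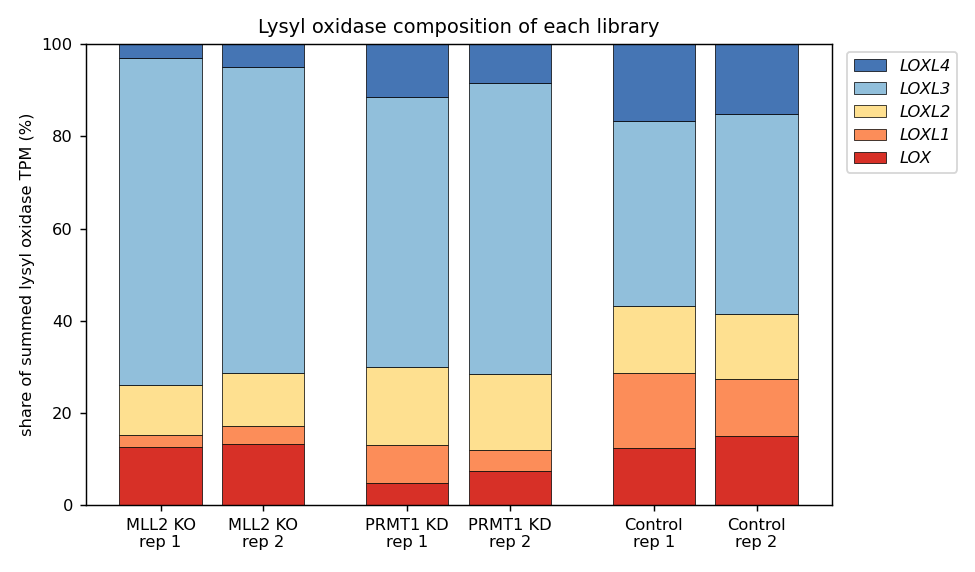
Share of each lysyl oxidase gene in the summed TPM of the family (vertical axis, percent) in each of the 6 libraries. LOXL3 takes 40.2% and 43.3% in control libraries and 58.5% to 70.8% in the depleted libraries.

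Of the prolyl 4-hydroxylase alpha subunits, both were lower in the knockdown and P4HA2 was lower in the knockout. P4HA1, the more abundant subunit, stood at 98.7 and 92.3 CPM in the knockout, 41.6 and 35.9 CPM in the knockdown, and 95.1 and 102 CPM in control libraries. The knockout and control libraries overlapped, and both knockdown libraries lay well below them. P4HA1 was not called in the knockout (-0.05 ± 0.09, adjusted p = 0.769), with log2 changes of -0.10 to 0.01 when libraries were left out, and it was 2.55-fold lower in the knockdown (-1.35 ± 0.10, adjusted p = 8.1e-10).

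P4HA2 showed smaller decreases, with 30.5 and 33.7 CPM in the knockout, 38.4 and 34.5 CPM in the knockdown, and 46.9 and 44.2 CPM in control libraries. The log2 change was -0.51 ± 0.11 in the knockout (adjusted p = 0.00265), a call lost without MLL2 knockout replicate 1 (adjusted p = 0.0617). In the knockdown it was -0.32 ± 0.11 (adjusted p = 0.0218). The knockdown call was lost with DESeq2 (DESeq2 adjusted p = 0.0888) and without a count filter (edgeR adjusted p = 0.0595). It was also lost without control replicate 1 (-0.29), control replicate 2 (-0.37) or knockdown replicate 2 (-0.25). It was kept with the exon length correction (-0.35, edgeR adjusted p = 0.0121). On the TPM scale, which lacks TMM scaling, the knockdown libraries, at 11.7 and 11.1, overlapped the control libraries, at 12.6 and 11.3. P4HA2 made up 10.1% and 11.7% of the summed TPM of P4HA1 and P4HA2 in the knockout. The share was 25.1% and 25.9% in the knockdown, and 15.2% and 13.6% in control libraries. Another alpha subunit, P4HA3, is not among the 10 genes and had 3 to 17 counts per library. It was called in neither depletion (-1.43 ± 0.88 in the knockout and -1.04 ± 0.85 in the knockdown, edgeR adjusted p = 0.271 and 0.33). P4HA3 was named after its values were seen.

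Among the lysyl hydroxylases, PLOD2 was lower in both depletions, PLOD3 was lower in the knockdown, and PLOD1 was called in neither. PLOD2, which hydroxylates lysine in the telopeptides of collagen, stood at 84.9 and 78.7 CPM in the knockout, 67.2 and 58.7 CPM in the knockdown, and 107 and 95.6 CPM in control libraries. The groups did not overlap, and the log2 changes were -0.31 ± 0.10 in the knockout (adjusted p = 0.0255) and -0.69 ± 0.10 in the knockdown (adjusted p = 6.5e-06). The knockout call was lost when any 1 of the control or knockout libraries was left out (log2 changes of -0.38 to -0.22, adjusted p up to 0.287).

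PLOD3, which also carries glycosyltransferase activity, stood at 35.3 and 45.5 CPM in the knockout, 23.3 and 30.9 CPM in the knockdown, and 38.4 and 40.3 CPM in control libraries. The knockout libraries spread on both sides of the control libraries (0.04 ± 0.14, adjusted p = 0.880), while both knockdown libraries were below them (-0.53 ± 0.14, adjusted p = 0.00341). The knockdown change was -0.76 without knockdown replicate 2 and -0.35 without knockdown replicate 1, and it was called in both fits.

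PLOD1, which hydroxylates lysine in the helical part of collagen, stood at 76.1 and 72.7 CPM in the knockout, 86.3 and 81.5 CPM in the knockdown, and 81.3 and 87.0 CPM in control libraries. It was not called in the knockout (-0.18 ± 0.09, adjusted p = 0.173) or in the knockdown (-0.0043 ± 0.09, adjusted p = 0.974). The sign of the knockdown value depended on the scaling, and it was 0.03 with relative log expression scaling. On the TPM scale, which lacks TMM scaling, PLOD1 was at 42.1 and 42.0 in the knockdown, against 34.9 and 35.5 in control libraries. Over the 10 genes, 6 were lower and 0 higher in the knockout, where 12.1% of all genes tested were lower and 10.3% higher. The median log2 change of the 10 genes was -0.41, against -0.01 over all genes tested. Without MLL2 knockout replicate 1, the number lower in the knockout was 3, and without control replicate 1, control replicate 2 or MLL2 knockout replicate 2 it was 4. In the knockdown 9 were lower and 0 higher, where 25.3% of all genes tested were lower and 22.2% higher. The median there was -1.09, against -0.04 over all genes tested. The 10 genes had exon lengths of 3093 to 8502 nt, between the classes of short genes, under 1000 nt, and long genes, over 8000 nt, in all but P4HA2. Over the 11509 genes with a mean over 2 on the log2 CPM scale, the median log2 change in the knockdown was -0.45 for the short class, -0.07 for the class between and 0.16 for the long class. After a correction for exon length P4HA1 stood at -1.16, LOXL4 at -2.02 and P4HA2 at -0.35, and 9 of the 10 were again lower.

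Set directly against the MLL2 knockout, the PRMT1 knockdown had lower levels of 5 of the 10 genes and higher levels of 0, where 40.7% of all genes tested were called, 21.4% lower. LOX was 3.28-fold lower in the knockdown than in the knockout (-1.71 ± 0.31, adjusted p = 1.4e-04), P4HA1 2.47-fold lower (-1.30 ± 0.10, adjusted p = 2.9e-09) and LOXL3 1.78-fold lower (-0.83 ± 0.15, adjusted p = 1.7e-04). PLOD3 (-0.57 ± 0.14, adjusted p = 0.00241) and PLOD2 (-0.38 ± 0.10, adjusted p = 0.00371) were lower by less. The PLOD3 call was lost without MLL2 knockout replicate 2 (-0.38, adjusted p = 0.0745) and the PLOD2 call without MLL2 knockout replicate 1 (-0.33, adjusted p = 0.0612). LOXL1 (0.28 ± 0.48, adjusted p = 0.687), LOXL2 (-0.08 ± 0.25, adjusted p = 0.837), P4HA2 (0.18 ± 0.11, adjusted p = 0.213) and PLOD1 (0.17 ± 0.09, adjusted p = 0.135) were not called.

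**Figure D3:**
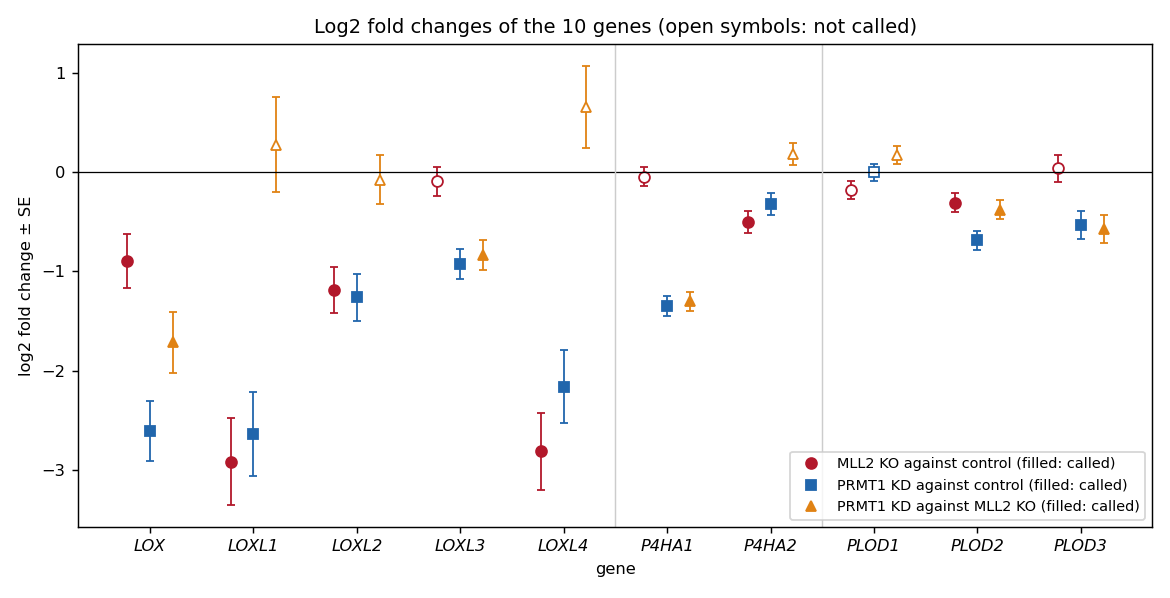
Log2 fold change (vertical axis) of each gene for MLL2 knockout against control (circles), PRMT1 knockdown against control (squares) and PRMT1 knockdown against MLL2 knockout (triangles), with standard errors as bars and filled symbols for an adjusted p under 0.05. LOX, LOXL3, P4HA1, PLOD2 and PLOD3 have filled triangles below 0.

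Position in the genome was not used to choose the genes, and they lie on 8 chromosomes. LOX (122063195 to 122078360) and P4HA2 (132191838 to 132295315) are on chromosome 5, and P4HA1 (73007217 to 73096974) and LOXL4 (98247690 to 98268194) on chromosome 10. LOXL1 is on chromosome 15 (73925989 to 73952137), LOXL3 on chromosome 2 (74532258 to 74555690), PLOD1 on chromosome 1 (11934205 to 11975538), PLOD2 on chromosome 3 (146069440 to 146163653) and PLOD3 on chromosome 7 (101205977 to 101218420). These positions were read from the count files, whose build was hg38 according to the submitters' processing notes. Neighbours were tested genes whose lowest coordinate, on either strand, lies within 500 kb of a member. Of the 126 neighbours of the 10 genes, 12.7% were lower in the knockout and 31.7% in the knockdown, against 12.1% and 25.3% of all genes tested. Higher were 8.73% and 19.8% of the neighbours, against 10.3% and 22.2% of all genes tested. Of the 6 neighbours of LOXL4, 0 were lower in the knockout and 1 in the knockdown, and of the 10 neighbours of LOXL1, 2 and 4 were. In the knockdown 12 of 28 neighbours of LOXL3, 8 of 15 of PLOD3 and 4 of 10 of P4HA2 were lower, with 3, 1 and 0 higher. Near other members more neighbours were higher than lower there. Of 22 neighbours of P4HA1, 5 were lower and 7 higher, and of 13 of LOXL2, 1 was lower and 5 higher. Of 4 neighbours of PLOD2, 0 were lower and 1 higher. In the knockout 3 of 10 neighbours of P4HA2 were lower. The median log2 change over the neighbours of P4HA2 was -0.48 in the knockdown and -0.33 in the knockout.

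Transcripts on the opposite strand were counted separately, since the counting used strand. LOXL1-AS1, a noncoding RNA that overlaps LOXL1 on the other strand, stood at 2.63 and 4.32 CPM in the knockout, 3.34 and 4.04 CPM in the knockdown, and 7.44 and 7.58 CPM in control libraries. It was lower in the knockout (-1.11 ± 0.28, adjusted p = 0.00718, a call lost without MLL2 knockout replicate 1) and in the knockdown (-1.02 ± 0.28, adjusted p = 0.00494). DOK1, an adaptor gene that overlaps LOXL3 on the other strand, was lower in both as well, at 6.98 and 8.83 CPM in the knockout, 4.35 and 4.13 CPM in the knockdown, and 14.7 and 15.6 CPM in control libraries. Its knockout change of -0.94 ± 0.20 (adjusted p = 0.00162) stands beside a LOXL3 change that was not called. P4HA2-AS1 had 0 counts in each library. On the same strand, LOXL2 overlaps ENTPD4, so its count may depend on how read pairs in the shared part were assigned.

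Other genes of collagen modification moved in both directions. Beside the counts of this list and those below, 12.1% of all genes tested were lower and 10.3% higher in the knockout. In the knockdown 25.3% were lower and 22.2% higher. Of 15 such genes, 3 were lower and 4 higher in the knockout (median log2 change 0.08), and 8 were lower and 3 higher in the knockdown (median -0.47). FKBP10, a collagen chaperone of the endoplasmic reticulum, stood at 176 and 192 CPM in the knockout, 134 and 142 CPM in the knockdown, and 243 and 257 CPM in control libraries (-0.44 ± 0.08 and -0.86 ± 0.08). CRTAP, a subunit of the prolyl 3-hydroxylase complex, was lower as well in the knockout (-0.42 ± 0.09, adjusted p = 0.00136, a call lost without control replicate 1) and in the knockdown (-0.86 ± 0.09, adjusted p = 8.4e-08). PPIB, a prolyl isomerase of the same complex, stood at 404 and 388 CPM in the knockout, 210 and 176 CPM in the knockdown, and 367 and 353 CPM in control libraries, and was lower in the knockdown (-0.90 ± 0.09, adjusted p = 5.7e-08). COLGALT2, a collagen galactosyltransferase, fell by 1.61 ± 0.16 in the knockdown (edgeR adjusted p = 8.0e-08). It was lower in the knockout too (-0.44 ± 0.15, edgeR adjusted p = 0.0434). Its paralog COLGALT1 rose by 0.61 ± 0.08 in the knockdown (edgeR adjusted p = 5.5e-06). FKBP14, a prolyl isomerase of the endoplasmic reticulum, rose by 0.58 ± 0.10 in the knockdown. The 4 genes higher in the knockout were FKBP14, COLGALT1, P3H4, a relative of the prolyl 3-hydroxylases, and TMEM38B, an ion channel of the endoplasmic reticulum, by 0.25 to 0.31 on the log2 scale. The knockout calls of P3H4 and TMEM38B were lost when any 1 of the control or knockout libraries was left out. That of FKBP14 was lost without control replicate 2 or either knockout library. The knockout call of COLGALT1 (0.25 ± 0.08, edgeR adjusted p = 0.038) was not followed through these alternatives. P3H4 and TMEM38B were lower in the knockdown (-0.47 ± 0.09 and -0.57 ± 0.09, adjusted p = 2.7e-04 and 4.2e-05). The knockdown values of CRTAP, P3H4 and TMEM38B and the knockout call of COLGALT1 were added after the values were seen. P4HB, the partner of both alpha subunits, stood at 487 and 495 CPM in the knockout, 381 and 359 CPM in the knockdown, and 459 and 471 CPM in control libraries (-0.33 ± 0.08 in the knockdown, adjusted p = 0.00158). P4HB was named after its values were seen, as the partner of P4HA1 and P4HA2.

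Of 12 tested of 15 genes that export and process procollagen, 2 were lower and 0 higher in the knockout (median 0.02), and 5 were lower and 2 higher in the knockdown (median -0.29). PCOLCE, which enhances the cleavage of procollagen, stood at 3.19 and 3.58 CPM in the knockout, 1.55 and 1.40 CPM in the knockdown, and 6.19 and 5.76 CPM in control libraries, and was lower in the knockdown (-2.01 ± 0.32, adjusted p = 2.7e-05). MIA3, a procollagen export receptor, rose by 0.45 ± 0.08 in the knockdown (adjusted p = 8.1e-05). KLHL12, which takes part in the formation of large transport carriers, was lower in the knockdown (-0.44 ± 0.09, adjusted p = 3.4e-04) and in the knockout (-0.28 ± 0.09, adjusted p = 0.0278), where the call was lost when any 1 of the control or knockout libraries was left out.

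Of 13 tested of 17 collagens, the substrates of the enzymes, 10 were lower and 0 higher in the knockout (median -0.49), and 10 were lower and 0 higher in the knockdown (median -1.04). COL1A1 and COL11A2 were called in neither depletion, COL5A1 was not called in the knockout, and COL4A2 was not called in the knockdown. COL6A2 stood at 12.1 and 15.1 CPM in the knockout, 12.8 and 14.6 CPM in the knockdown, and 41.3 and 54.0 CPM in control libraries (-1.81 ± 0.15 and -1.80 ± 0.15). COL2A1 stood at 25.6 and 27.1 CPM in the knockout, 19.7 and 21.4 CPM in the knockdown, and 60.6 and 63.0 CPM in control libraries (-1.23 ± 0.11 and -1.59 ± 0.11). Of 11 tested of 15 genes of the elastic fibre and of lysyl oxidase partners, 5 were lower and 0 higher in the knockout (median -0.50), and 3 were lower and 2 higher in the knockdown (median -0.70). Fibronectin, FN1, which binds LOX, stood at 69.7 and 69.0 CPM in the knockout, 33.7 and 37.1 CPM in the knockdown, and 116 and 112 CPM in control libraries (-0.71 ± 0.09 and -1.68 ± 0.09). FBN1, fibrillin, was lower in the knockout (-0.50 ± 0.11, adjusted p = 0.00178, a call lost without MLL2 knockout replicate 1). It stood at 53.0 and 53.9 CPM in the knockdown, against 46.0 and 45.9 CPM in control libraries, and was not called there (0.22 ± 0.10, edgeR adjusted p = 0.0937). SLC31A1, the copper importer, rose by 0.54 ± 0.09 in the knockdown (adjusted p = 6.2e-05).

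Hypoxia genes were listed because the prolyl and lysyl hydroxylases are among their targets. Of 19 tested of 20, 5 were lower and 1 higher in the knockout (median -0.08), and 12 were lower and 4 higher in the knockdown (median -0.37). HIF1A, the oxygen-regulated subunit, stood at 153 and 164 CPM in the knockout, 212 and 187 CPM in the knockdown, and 106 and 108 CPM in control libraries, and rose in both (0.56 ± 0.09, adjusted p = 1.0e-04, and 0.89 ± 0.09, adjusted p = 4.9e-08). VEGFA, an angiogenic factor, was lower in both, at 66.6 and 68.9 CPM in the knockout, 36.2 and 36.0 CPM in the knockdown, and 107 and 132 CPM in control libraries. LDHA, lactate dehydrogenase, had 1026 and 971 CPM in the knockout, 520.0 and 480.5 CPM in the knockdown, and 995 and 939 CPM in control libraries, and was lower in the knockdown (-0.95 ± 0.08, adjusted p = 9.0e-09). Targets also rose: ADM, adrenomedullin, stood at 14.1 and 15.0 CPM in the knockout, 48.7 and 45.8 CPM in the knockdown, and 15.1 and 14.5 CPM in control libraries (1.67 ± 0.13 in the knockdown, adjusted p = 1.6e-09). HIF1AN, which hydroxylates asparagine in the factor, rose by 1.32 ± 0.11 in the knockdown (adjusted p = 3.3e-09).

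**Figure D4:**
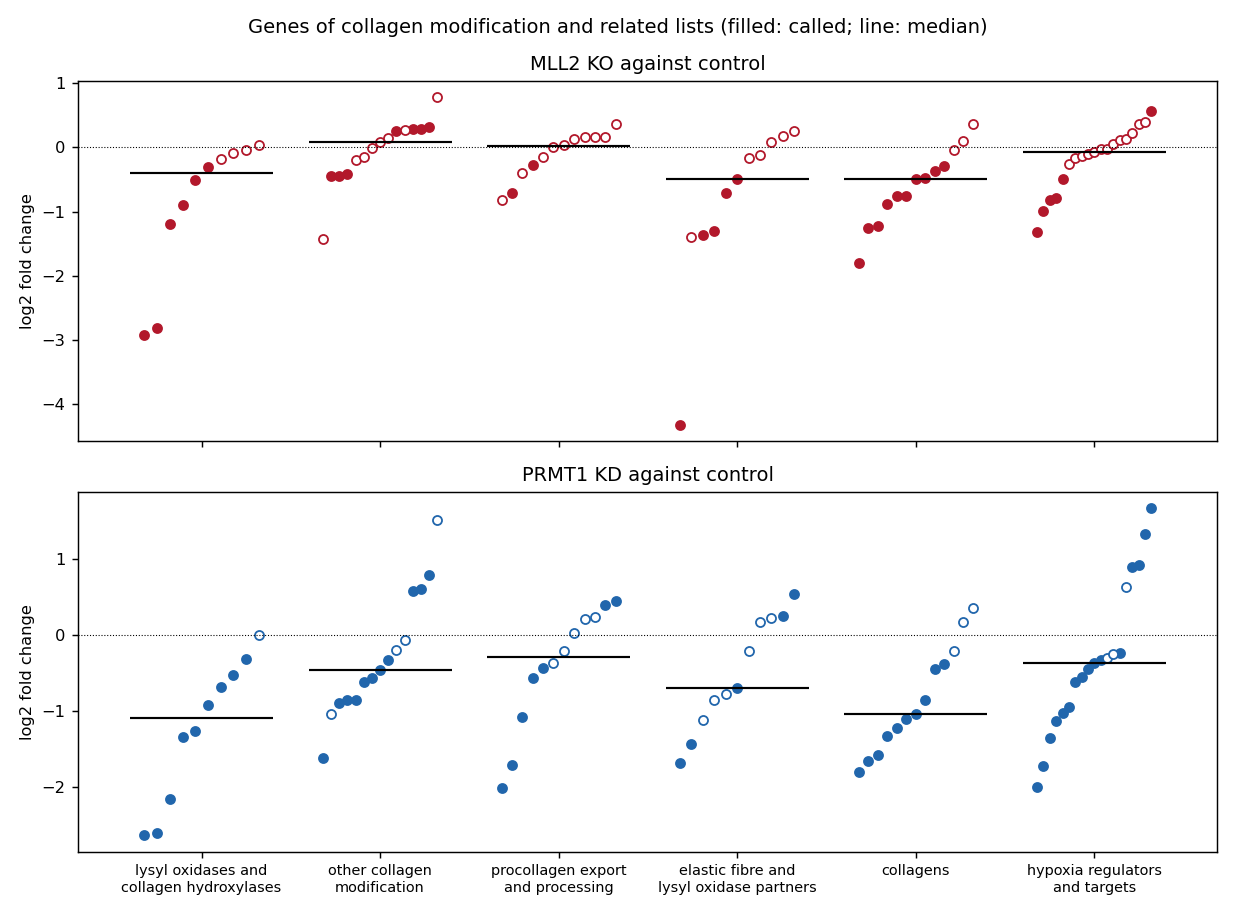
Log2 fold change (vertical axes) of the tested genes of 6 lists in MLL2 knockout against control (upper panel) and PRMT1 knockdown against control (lower panel); each point is a gene, filled at an adjusted p under 0.05, and lines are medians. The 10 lysyl oxidase and collagen hydroxylase genes have medians of -0.41 and -1.09, and the collagens of -0.49 and -1.04.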

How the data were processed

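Total RNA was extracted with TRIzol and libraries were made with a stranded total RNA kit, per the labels' protocols. The deposited files hold raw counts of read pairs per gene, made by the authors. Per the submitters' processing notes, the tools were Trim Galore 0.6.10 for trimming, STAR 2.7.5a for alignment (hg38) and featureCounts 1.5.0-p1 for counting, while the file headers name featureCounts 2.0.1, GENCODE 34, a minimum mapping quality of 10 and reverse-stranded counting (setting 2). Symbols were found for 60370 of 60669 gene identifiers.

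Genes were filtered with filterByExpr, scaled by TMM and fitted over all 6 libraries in edgeR 4.0.16 (glmQLFit, glmQLFTest; R 4.3.3), with group terms, which left 3 degrees of freedom for the residual. Genes with an adjusted p under 0.05 over 17575 genes were called. The SE is the log2 change divided by the root of the F statistic. TPM used the exon length in the files. Where replicates are not separate cultures, p-values cover technical spread alone, and depth (20061471 to 22351532 counts) limits the genes with few counts. The test was tried on simulated counts: of 2-fold changes it recovered 95.5% (knockout), 97% (knockdown) and 97% (knockdown against knockout), and of 1.5-fold changes 58.2%, 71.6% and 67.2%, for genes with a mean over 2 on the log2 CPM scale. The changes were placed only in such genes, and the counts were drawn from the fitted spread. Recovery at the lower levels of LOXL1 and LOXL4 was therefore not tried. In each comparison 67, 67 and 66 genes were changed by 1.5-fold, 2-fold and 4-fold, and other genes had 1 mean for all groups. The real comparisons called 3941, 8338 and 7154 genes, so the simulated figures need not hold for them. The simulated fits covered 16963, 16885 and 16888 genes, of which 8, 14 and 9 unchanged genes were called.

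The members and lists were chosen with earlier results of these data known, so their directions are not independent evidence. The members, the targeted genes and up to 3 genes per direction, list and comparison with the smallest adjusted p were taken for naming, and part of the last are printed. Alternatives were relative log expression, DESeq2 1.42.0, other count filters, the compared groups alone, a replicate block, an exon length correction (spline with 5 degrees of freedom) and each library left out. Protein sequences were not used here.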

Additional observations from a re-analysis of the deposited data

How the results depend on the processing

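Over the 3 comparisons and 13 alternatives, 117, 117 and 126 of 130 values of the 10 genes kept their direction and side of the threshold (knockout, knockdown, and knockdown against knockout). Values that changed sign were of genes not called: with a library left out, P4HA1 in the knockout ranged from -0.0982 to 0.00779, PLOD3 in the knockout from -0.15 to 0.21, KMT2B in the knockout from -0.0543 to 0.105, PLOD1 in the knockdown from -0.0584 to 0.0374 and LOXL1 between the depletions from -0.13 to 0.61. PLOD1 in the knockdown was 0.0303 with relative log expression, 0.0323 with DESeq2, 0.0245 without a count filter, 0.00582 at 1 CPM in 2 libraries, 0.0310 with the compared groups alone and 0.0491 with the length correction. With a library left out, the genes called in the knockout ranged from 1908 to 5492, against 3941 with every library (2184 and 2255 without MLL2 knockout replicates 1 and 2, 5369 and 5492 without PRMT1 knockdown replicates 1 and 2, 2157 and 1908 without control replicates 1 and 2), and the members called lower from 3 (without MLL2 knockout replicate 1) to 6. A fit without 1 library of a compared group assumes that the lone library varies like the others, and the cause of the lost calls was not tested. With the replicate block, 6, 9 and 5 members were lower, as without it, and 4512, 8710 and 7529 genes were called, against 3941, 8338 and 7154. Whether the replicate numbers pair the samples is not known, and correlations between groups cannot settle it. Across 11509 genes, replicate 2 minus replicate 1 correlated at 0.06 between control and knockout and 0.04 between control and knockdown. Between knockout and knockdown the correlation was 0.20. Of 468 counts of called genes in the other lists, 423 stayed within 1.5 times the printed one. Without length, 19 of 30 ranks of the genes by level differed. Depth limits LOXL1 and LOXL4, with 13 to 33 counts in depleted libraries, and LOX in the knockdown, with 22 and 39 counts.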
